A study of Mus musculus with 5 samples.

Results

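The genes described are 8 lipid droplet genes, of 32285 listed in every library: Plin2, Plin3, Plin4, Plin5, Cidec, Fitm1, Fitm2 and Bscl2. They were taken by name, and all 8 were found in the gene lists of the 5 libraries. Nuclei of white adipose tissue from 10-week-old male mice on a chow diet were sequenced from 5 depots, to compare cell types among them. The depots were peri-heart (HWAT), perirenal (NWAT), mesenteric (MWAT), epididymal (EWAT) and subcutaneous fat (SWAT). The animals were wild type and received no treatment other than perfusion with heparin in saline at collection. The protocol text names C57BL/6J throughout, whereas the strain field agrees for SWAT and EWAT but differs for the other depots: it reads C57BL/9J on the HWAT label, C57BL/8J on NWAT and C57BL/7J on MWAT. Each depot was 1 pooled library: 20 mice gave the HWAT pool, 10 the MWAT pool and 6 each of the others. With 1 library per depot there is no test between depots, and no p-value or standard error is given. Levels are summed counts of unique molecular identifiers (UMIs) for all nuclei of 1 class and depot, scaled to 1000000 UMIs (CPM). The intervals in brackets are exact 95% Poisson limits, or exact 95% limits of a ratio, and cover counting error only.

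Neutral lipid is stored in droplets that bud from the endoplasmic reticulum and are enclosed by a phospholipid monolayer carrying coat proteins. Perilipins coat the droplet and govern the access of lipases, with Plin1 as the main coat of the adipocyte droplet, Plin2 and Plin3 present in many cell types, Plin4 abundant in white adipocytes, and Plin5 known from oxidative tissues such as heart, muscle and brown fat. Cidec (also called FSP27) sits at droplet contact sites and promotes lipid transfer into the larger droplet. Fitm1 and Fitm2 are endoplasmic reticulum proteins that bind triglyceride and act in droplet formation, Fitm1 mainly in skeletal muscle. Bscl2 encodes seipin, which sits where droplets meet the endoplasmic reticulum and is mutated in congenital generalised lipodystrophy.

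The libraries kept between 11094 and 16642 nuclei after filtering, 66249 of 76040 in all. Classes were named from marker genes and are written "-like". The 6 adipocyte-like clusters had all 7 adipocyte markers (among them Adipoq, Acvr1c and Adrb3) raised 2-fold or more. Adipocyte-like nuclei numbered 6362 in SWAT, 8741 in EWAT, 4245 in MWAT, 6350 in NWAT and 1810 in HWAT. Their median depth was 2080, 2526, 1445, 3246 and 1886 UMIs in that order, and their median mitochondrial share was 0.546%, 0.229%, 0.424%, 0.376% and 1.22%. HWAT stood apart: adipocyte-like nuclei were 16.1% of its nuclei, against 25.5% to 57.4% in the other depots, and B cell-like nuclei were 20.9%. Immunoglobulin transcripts and Scgb1a1 were among the leading genes of its main adipocyte sub-cluster, and muscle transcripts led the main NWAT one. Defa24, Reg3b and Fabp2, genes of the gut, were among those of the main MWAT one. The libraries shared between 40 and 87 cell barcodes per pair. Scaling by trimmed means of M values (TMM) moved all HWAT adipocyte log2 levels by 0.18 and those of the other depots by -0.07 to -0.01; CPM values are not shifted by it.

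Plin3, Plin4 and Plin5 lie on the minus strand of chromosome 17, with 1797 bases between Plin4 and Plin5. In GRCm38, by the GENCODE vM21 annotation, Plin4 (ENSMUSG00000002831) spans chr17:56100591-56109803, Plin5 (ENSMUSG00000011305) chr17:56111601-56117596 and Plin3 (ENSMUSG00000024197) chr17:56277476-56292873. Plin2 (ENSMUSG00000028494) spans chr4:86648386-86670060 on the minus strand, and Cidec (ENSMUSG00000030278) chr6:113424634-113435760 on the minus strand. Fitm1 (ENSMUSG00000022215) spans chr14:55575617-55576954 on the plus strand, and Fitm2 (ENSMUSG00000048486) chr2:163466379-163472629 on the minus strand. Bscl2 (ENSMUSG00000071657) spans chr19:8837467-8848683 on the plus strand. The gene AC129217.1 covers 3671 bases of Bscl2 on the same strand and was not in the files' gene list, and Gng3 covers 1728 bases on the other strand. How reads in those stretches were counted is not given in the sources used here, so Bscl2 counts are uncertain to that degree. Fitm1 and Fitm2 overlap the antisense genes Gm15932 and 2310001K24Rik by 375 and 673 bases, with the same reserve.

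The sequences upstream of 3 perilipin genes are shown because Plin4 and Plin5, neighbours on one strand, had opposite levels in HWAT thermogenic-like nuclei, and because the depot order of Plin2 changed with the cell class. They are from RefSeq (GRCm38.p6), on the minus strand and read 5′ to 3′ toward the gene, starting 250 bases before the most upstream listed start and ending where the GENCODE gene begins. Capitals mark AGGTCA on either strand (TGACCT), the hexamer that many nuclear receptors recognise. The windows are chr17:56117597-56117798 for Plin5, chr17:56109804-56110032 for Plin4 and chr4:86670061-86670309 for Plin2.
Plin5: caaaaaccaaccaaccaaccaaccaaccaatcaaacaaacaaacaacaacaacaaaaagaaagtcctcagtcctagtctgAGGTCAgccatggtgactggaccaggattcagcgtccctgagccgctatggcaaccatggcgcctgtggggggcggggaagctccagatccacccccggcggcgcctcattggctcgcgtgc
Plin4: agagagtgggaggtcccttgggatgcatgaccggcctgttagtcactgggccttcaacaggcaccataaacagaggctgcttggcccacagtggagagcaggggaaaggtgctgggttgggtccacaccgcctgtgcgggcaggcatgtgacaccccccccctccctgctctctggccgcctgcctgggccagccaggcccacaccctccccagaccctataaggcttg
Plin2: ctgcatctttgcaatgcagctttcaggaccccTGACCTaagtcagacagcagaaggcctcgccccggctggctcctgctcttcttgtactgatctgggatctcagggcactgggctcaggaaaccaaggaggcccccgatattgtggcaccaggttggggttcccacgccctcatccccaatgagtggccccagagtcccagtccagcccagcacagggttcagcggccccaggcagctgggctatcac

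The hexamer was present once before Plin5 and once before Plin2, and not in the Plin4 window. It was also found once before the second listed start of Bscl2, and in no window of Plin3, Cidec, Fitm1 or Fitm2. Of 32851 RefSeq promoters, 14.0% hold it within the same 250 bases. That share is per listed start, whereas every listed start of a member was searched, 3 of them for Bscl2. The 3 of 8 genes with a match are thus a description of these windows and no more.

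Among adipocyte-like nuclei, Plin5 was the member that differed most between depots. HWAT had 118 CPM (107 to 130), against 17.8 in SWAT (15.6 to 20.1), 15.2 in MWAT (12.4 to 18.5), 13.3 in NWAT (11.8 to 14.9) and 5.05 in EWAT (4.18 to 6.06). These sums rested on 431, 248, 99, 292 and 116 counts in that order. HWAT stood above every other depot and EWAT below every other depot, while SWAT, MWAT and NWAT lay close together, with neighbours in the order not separated beyond counting error, although the intervals of SWAT and NWAT did not overlap. On the log2 scale Plin5 was 3.34 higher in HWAT and 2.33 lower in EWAT than the mean log2 level of the other 4 depots. A UMI of Plin5 was seen in 16.7% of HWAT nuclei and in 1.28% to 4.27% of the nuclei of the other depots. After thinning every nucleus to 1000 UMIs the share was 10.1% in HWAT and 0.45% to 1.67% elsewhere.

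**Figure D1:**
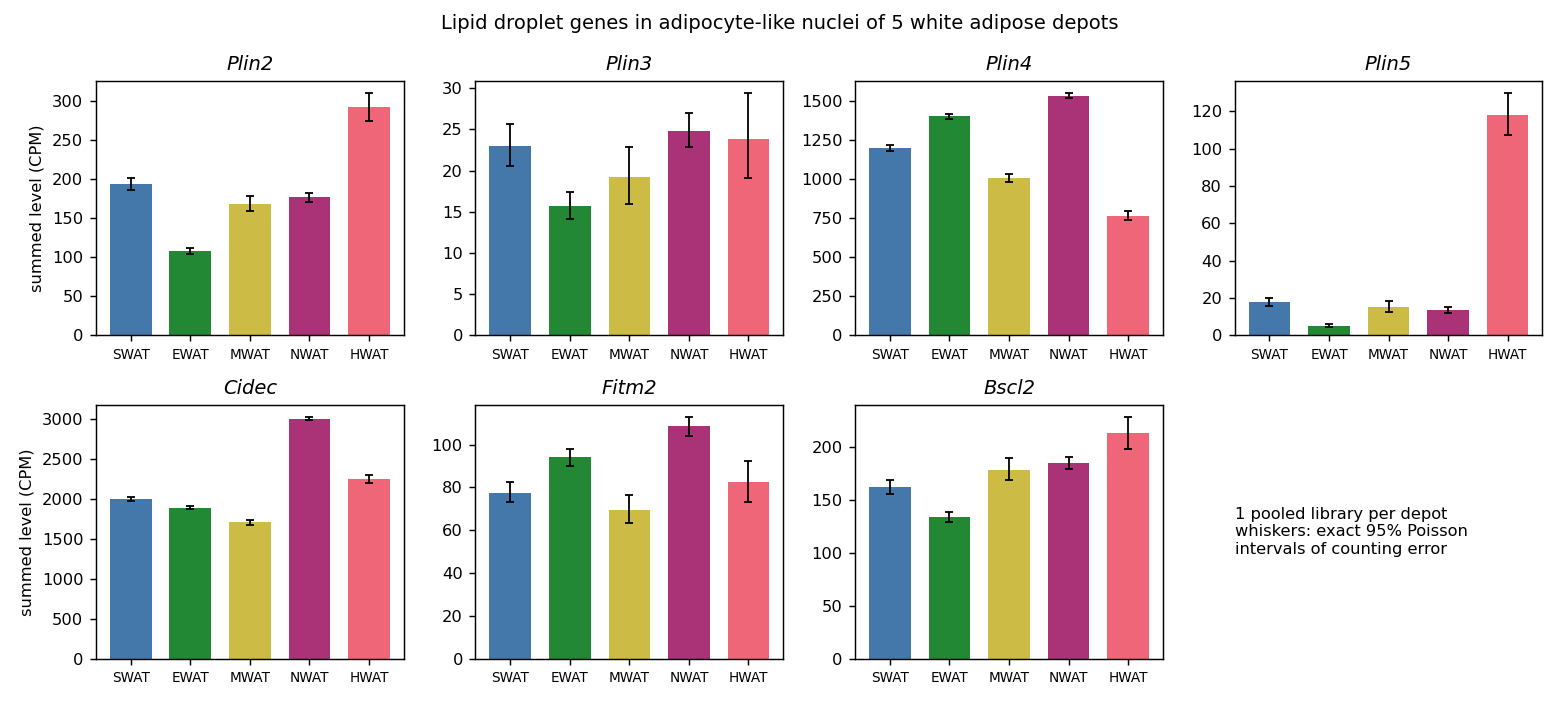
Summed levels in CPM (y axis, from 0, its own scale per gene) of 7 members in adipocyte-like nuclei of the 5 depots (x axis); bars are 1 pooled library each and whiskers exact 95% Poisson intervals of counting error. Plin5 reaches 118 CPM in HWAT and 17.8 CPM or less elsewhere, and Plin4 is lowest in HWAT at 765 CPM.

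Plin2, the perilipin found on droplets of most cell types, had 292 CPM in HWAT (274 to 310), 193 in SWAT (186 to 201), 176 in NWAT (171 to 182), 168 in MWAT (158 to 179) and 107 in EWAT (103 to 112). The order was thus HWAT, SWAT, then NWAT and MWAT without separation beyond counting error, then EWAT. HWAT exceeded EWAT 2.72-fold (2.52 to 2.92). Plin4, the perilipin of white fat with a long repeat region, ran differently: 1534 CPM in NWAT, 1401 in EWAT, 1197 in SWAT, 1006 in MWAT and 765 in HWAT (736 to 793). NWAT exceeded HWAT 2.01-fold (1.93 to 2.09), so the depot highest in Plin5 and Plin2 was lowest in Plin4.

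Cidec had 3006 CPM in NWAT, 2250 in HWAT, 1998 in SWAT, 1892 in EWAT and 1709 in MWAT, a range of 1.76-fold (1.72 to 1.80). Bscl2, the seipin gene, had 213 CPM in HWAT, 185 in NWAT, 179 in MWAT, 162 in SWAT and 134 in EWAT. Fitm2 had 108 CPM in NWAT, 94.1 in EWAT, 82.5 in HWAT, 77.7 in SWAT and 69.6 in MWAT. Plin3, a perilipin that moves to new droplets from the cytosol, had 24.8 CPM in NWAT, 23.8 in HWAT, 22.9 in SWAT, 19.2 in MWAT and 15.6 in EWAT. No 2 neighbours in the Plin3 order were separated beyond counting error, although NWAT exceeded EWAT 1.59-fold (1.39 to 1.82). These 4 genes stayed within 2-fold across all depots.

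Each depot was also set against the mean of the other 4, with a change of 2-fold or more counted and 20 counts required. Among all 16984 genes tested, 11.9% were 2-fold higher and 19.3% 2-fold lower in HWAT adipocyte-like nuclei, and 7.7% were higher and 5.5% lower in EWAT. Of the 8 members, 2 were higher and 0 lower in HWAT (Plin5 and Fitm1), and 0 were higher and 2 lower in EWAT (the same pair). In SWAT 0 were higher and 1 was lower (Fitm1), with 4.95% of all genes higher and 7.17% lower. In NWAT 1 was higher (Fitm1) and 0 lower, with 4.19% and 12.9% of all genes, and in MWAT 0 passed in either direction, with 12.9% and 3.97%. The Fitm1 values rest on 21 counts over 5 libraries and are not read further.

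Fitm1, the muscle form of the droplet-forming pair, was near 0 in adipocytes: 0 counts in SWAT, 1 in EWAT, 2 in MWAT, 15 in NWAT and 3 in HWAT. In SWAT the 0 counts allow up to 0.215 CPM (3 counts). In the 203 skeletal muscle-like nuclei of NWAT it had 82 counts, or 154 CPM (122 to 191), and 24.1% of these nuclei held a UMI. Adipocyte RNA was also seen in these nuclei, with the 7 adipocyte markers at a median of 40.5% of their adipocyte level, whereas Fitm1 was far above its adipocyte level of 0.684 CPM in NWAT. Plin5, which is known from muscle, had only 4 counts there (7.51 CPM, 2.05 to 19.2).

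HWAT held a sub-cluster of 266 thermogenic-like adipocytes, led by Ucp1, Fabp3, Cidea, Cox7a1 and Cpt1b, with 7 of 8 thermogenic markers raised 2-fold. No nucleus of another depot fell in it, and the members and their pathway genes were kept out of the clustering. In these nuclei Plin5 had 397 CPM (348 to 450), against 62.5 CPM (53.9 to 72) in the other 1544 HWAT adipocyte-like nuclei, a ratio of 6.35 (5.23 to 7.72). A UMI of Plin5 was seen in 50.4% of thermogenic-like and 10.9% of other nuclei, and after thinning in 31.5% and 6.11%. Plin3 was higher too, with 42.8 CPM (27.9 to 62.7) in thermogenic-like nuclei and 20.1 CPM (15.3 to 25.8) in the others, on 26 and 61 counts. Its log2 difference of 1.11 fell short of 2-fold at 0.99 by the mean CPM of each nucleus, and its counts stayed under a minimum of 100.

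Plin4 and Cidec were lower in the thermogenic-like nuclei. Plin4 had 291 CPM (250 to 338) there and 859 CPM (826 to 893) in the other HWAT adipocytes, a ratio of 0.339 (0.289 to 0.395). Cidec had 1108 CPM (1026 to 1194) and 2479 CPM (2423 to 2535) in that order, a ratio of 0.447 (0.412 to 0.484). The neighbouring genes Plin5 and Plin4 thus had opposite directions within 1 library, and for each gene the intervals of both groups did not overlap.

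Plin2, Fitm2 and Bscl2 stayed within 2-fold. Plin2 had 410 CPM in thermogenic-like and 268 in other nuclei, Fitm2 107 and 77.6 CPM, and Bscl2 143 and 227 CPM. Among 10303 genes tested in this comparison, 11.7% were 2-fold higher and 10% lower in thermogenic-like nuclei. Of the 7 members that reached 20 counts, 2 were higher (Plin3, Plin5), 2 lower (Plin4, Cidec) and 3 within 2-fold. The median mitochondrial share was 2.03% in the thermogenic-like nuclei and 1.13% in the main remaining sub-cluster of 1507 nuclei; its part in these differences was not tested.

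**Figure D2:**
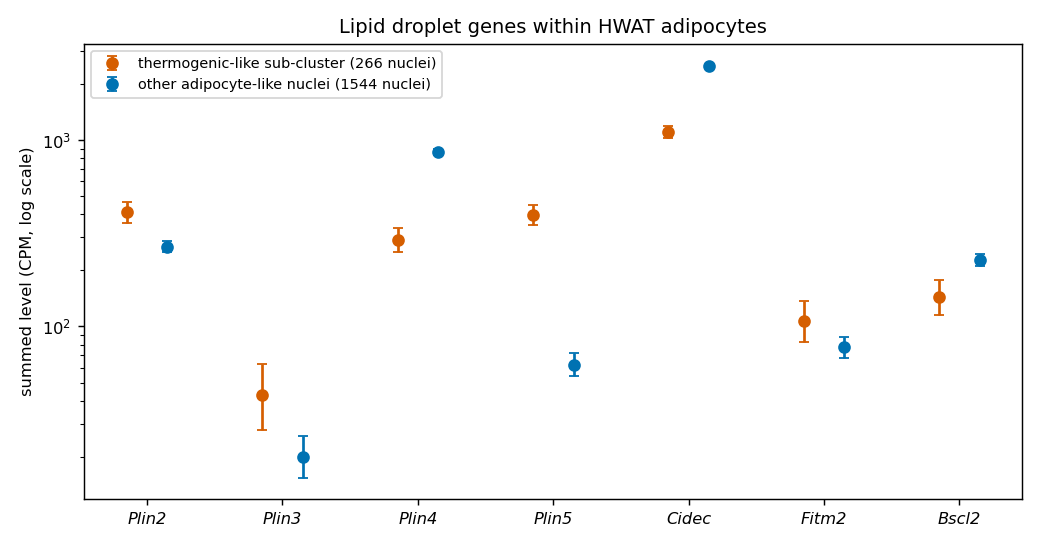
Summed levels in CPM (y axis, log scale) of 7 members (x axis) in the thermogenic-like sub-cluster (orange, left of each pair) and the other adipocyte-like nuclei (blue) of the HWAT library; whiskers are exact 95% Poisson intervals of counting error. Plin5 lies at 397 against 62.5 CPM, while Plin4 at 291 against 859 CPM and Cidec at 1108 against 2479 CPM run the other way.

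The HWAT excess of Plin5 was smaller without the thermogenic-like nuclei but was still present. The other HWAT adipocytes had 3.51 times the Plin5 level of SWAT (2.89 to 4.26), 4.11 times that of MWAT (3.2 to 5.29), 4.69 times that of NWAT (3.89 to 5.65) and 12.4 times that of EWAT (9.76 to 15.7). The log2 difference from the other depots was 2.43 without the sub-cluster, against 3.34 with it. Within HWAT, the level in the other adipocytes was 15.8% of the thermogenic-like level for Plin5, 1.55% for Ucp1 and 1.15% for Cpt1b. It was 3.08% for Fabp3, 2.94% for Otop1, 5.07% for Cox7a1, 11.8% for Cox8b and 13.6% for Kcnk3. Ucp1, Fabp3, Otop1, Cox7a1 and Cox8b there (23.3, 32.2, 4.93, 33.2 and 153 CPM) exceeded SWAT adipocytes (2.29, 1.15, 2.94, 16.4 and 106 CPM). Cpt1b and Kcnk3 there (4.93 and 28.6 CPM) were below SWAT (10.8 and 43.2 CPM). The part of remaining thermogenic RNA in this Plin5 level was not tested. Outside HWAT, adipocyte Ucp1 was 2.29 CPM in SWAT (32 counts), 1 count in NWAT and 0 counts in EWAT and MWAT. The depots' order in Plin5 thus had SWAT next after HWAT, as for Ucp1, although SWAT and MWAT were not separated in Plin5. Among the other thermogenic markers, Cpt1b, Otop1, Cox7a1, Cox8b and Kcnk3 also had SWAT next after HWAT. Cox8b was close in SWAT and MWAT, at 106 and 94.5 CPM, as was Kcnk3, at 43.2 and 39.9 CPM. Fabp3 had another order, with 3.53 CPM in MWAT, 1.78 in NWAT and 1.15 in SWAT, and Elovl3 had at most 1 count per depot.

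Plin4 also varied within the adipocytes of single depots. In a sub-cluster led by haemoglobin genes, with Tagln, Myl9, Col1a1 and mt-Co1 among its leading genes, Plin4 had 591 CPM in SWAT, 636 in EWAT, 350 in MWAT and 860 in NWAT. In the main sub-cluster of the same depots it had 1236 CPM in SWAT, 1408 in EWAT, 1096 in MWAT and 1544 in NWAT. Plin4 was lower in this sub-cluster in all 4 depots. The median mitochondrial share there was 2.98% in SWAT, 1.95% in EWAT, 3.62% in MWAT and 2.87% in NWAT, and neither its part nor that of transcripts from other cells in the Plin4 level was tested.

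Adipocytes and FAP-like nuclei (stroma that can give rise to adipocytes, named for fibro-adipogenic progenitors) were compared within each library. Plin4, Plin5, Cidec, Fitm2 and Bscl2 were 2-fold or more higher in adipocytes in all 5 depots. In log2 units the adipocyte excess was 2.88 to 3.34 for Cidec, 2.46 to 3.85 for Plin4, 1.67 to 2.99 for Fitm2, 1.54 to 1.92 for Bscl2 and 1.99 to 3.79 for Plin5. FAP-like Plin5 rested on only 2 to 7 counts per depot. Among all genes tested, 16.2% in SWAT, 16.3% in EWAT, 16.4% in MWAT, 18.3% in NWAT and 13.8% in HWAT were 2-fold higher in adipocytes, against 5 of the 8 members in each depot but HWAT, where Plin2 made it 6. Fitm1 stayed under 20 counts in each of these comparisons.

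Plin3 was the member with the opposite direction. Adipocyte and FAP-like levels were 22.9 and 39.8 CPM in SWAT, 15.6 and 43.4 CPM in EWAT, and 19.2 and 39.2 CPM in MWAT. They were 24.8 and 81.9 CPM in NWAT, and 23.8 and 61.0 CPM in HWAT. The adipocyte level was the lower one in every depot, and 2-fold or more lower in EWAT (log2 -1.48), MWAT (-1.04), NWAT (-1.72) and HWAT (-1.37). Of all genes, 20.6%, 19.8%, 21.9% and 22.9% were 2-fold lower in adipocytes in these depots, and 19.1% in SWAT, where 0 members were. In MWAT, Plin3 fell short of 2-fold under 5 of 13 alternative settings (log2 -0.78 at the smallest).

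Plin2 changed direction with the depot. In HWAT adipocytes had 292 CPM and FAP-like nuclei 72.4 CPM (51.3 to 99.4), a ratio of 4.03 (2.91 to 5.72). In MWAT the values were 168 and 90.7 CPM. In EWAT they were 107 and 124 CPM, in SWAT 193 and 321 CPM, and in NWAT 176 and 390 CPM (362 to 420), the last a ratio of 0.451 (0.417 to 0.49). The log2 difference of adipocytes from FAP-like nuclei was 1.99 in HWAT and -1.15 in NWAT. Plin2 was highest of the depots in HWAT among adipocytes and lowest there among FAP-like nuclei. Between HWAT and NWAT the FAP-like level differed by the larger factor (72.4 and 390 CPM) and the adipocyte level by the smaller (292 and 176 CPM).

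Across depots, FAP-like Plin2 was 5.38-fold higher in NWAT than in HWAT (3.88 to 7.67), and 3.16-fold higher in NWAT than in EWAT (2.72 to 3.67). Against the mean of the other depots its log2 difference was 1.61 in NWAT, 1.26 in SWAT, -1.01 in MWAT and -1.40 in HWAT. After thinning, 27.0% of NWAT, 23.9% of SWAT, 10.3% of EWAT, 8.79% of MWAT and 7.09% of HWAT FAP-like nuclei held a UMI of Plin2. Neighbours in this order were separated in CPM beyond counting error apart from MWAT and HWAT.

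Of the 8 members in FAP-like nuclei, 2 stayed under 20 counts (Plin5 and Fitm1). In NWAT 1 was 2-fold higher (Plin2) and 0 lower, and of 12972 genes 4.07% were higher and 7.11% lower. SWAT had 2 higher (Plin2, and Plin4 at 1.08) and 0 lower, with 5.47% and 6.84% of genes, and EWAT 0 in either direction, with 5.4% and 4.05%. MWAT had 0 higher and 2 lower (Plin2, and Fitm2 at -1.05), with 6.46% and 5.67% of genes, and HWAT 0 higher and 2 lower (Plin2, and Plin4 at -1.18), with 10.3% and 12%. Plin2 was the only member called in more than 2 depots here.

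Endothelial-like and pericyte-like nuclei had the same depot at the top. Endothelial-like Plin2 was 383 CPM in NWAT (363 to 404), 209 in SWAT, 168 in EWAT, 75.0 in MWAT and 68.8 in HWAT (48.2 to 95.2). Pericyte-like Plin2 was 587 CPM in NWAT (535 to 642), 323 in SWAT, 259 in EWAT, 225 in MWAT and 182 in HWAT (108 to 287), the last on 18 counts from 68 nuclei. NWAT and HWAT were at the ends of the order in FAP-like, endothelial-like and pericyte-like nuclei. MWAT and HWAT were not separated among endothelial-like nuclei, and among pericyte-like nuclei only NWAT and SWAT were separated neighbours. The median depth of FAP-like nuclei was 2359 UMIs in NWAT and 1368 in HWAT, and its part in these levels was not tested. Adipoq, as a share of its adipocyte level, was also higher in NWAT than in HWAT: 24.3% and 18.4% in FAP-like, 55.1% and 13.4% in endothelial-like, and 94.2% and 23.6% in pericyte-like nuclei. The median of the 7 adipocyte markers was lower than Adipoq in all of these. It was 6.0% in NWAT and 4.0% in HWAT in FAP-like, 8.5% and 5.0% in endothelial-like, and 16.9% and 4.9% in pericyte-like nuclei. Plin2 in these NWAT nuclei was 222%, 218% and 333% of its adipocyte level in that order, and in HWAT 24.9%, 23.6% and 62.3%. The part of adipocyte RNA in the depot order of Plin2 was not tested. Mesothelial-like Plin2 was likewise highest in NWAT, at 125 CPM (111 to 141), against 68.7 in HWAT, 68.5 in EWAT and 63.3 in MWAT.

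Among 13948 genes tested in endothelial-like nuclei, 4.48% were higher and 7.51% lower in NWAT, where 2 members were higher (Plin2 at log2 1.72 and Cidec at 1.37) and 0 lower. HWAT had 1 higher (Plin5 at 2.07, on 54 counts over all depots) and 3 lower (Plin4 at -1.99, Plin2 at -1.35 and Fitm2 at -1.12), with 9.2% and 13.5% of genes. MWAT had 0 higher and 3 lower (Plin5, Plin2 and Cidec), with 7.14% and 4.99%. SWAT had 1 higher (Plin4 at 1.15) and 0 lower, with 5.55% and 4.88%, and EWAT 0 in either direction, with 4.47% and 4.57%. Adipocyte markers were also seen in these nuclei, as given below. The part of adipocyte RNA in the Cidec, Plin4 and Plin5 values was not tested.

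**Figure D3:**
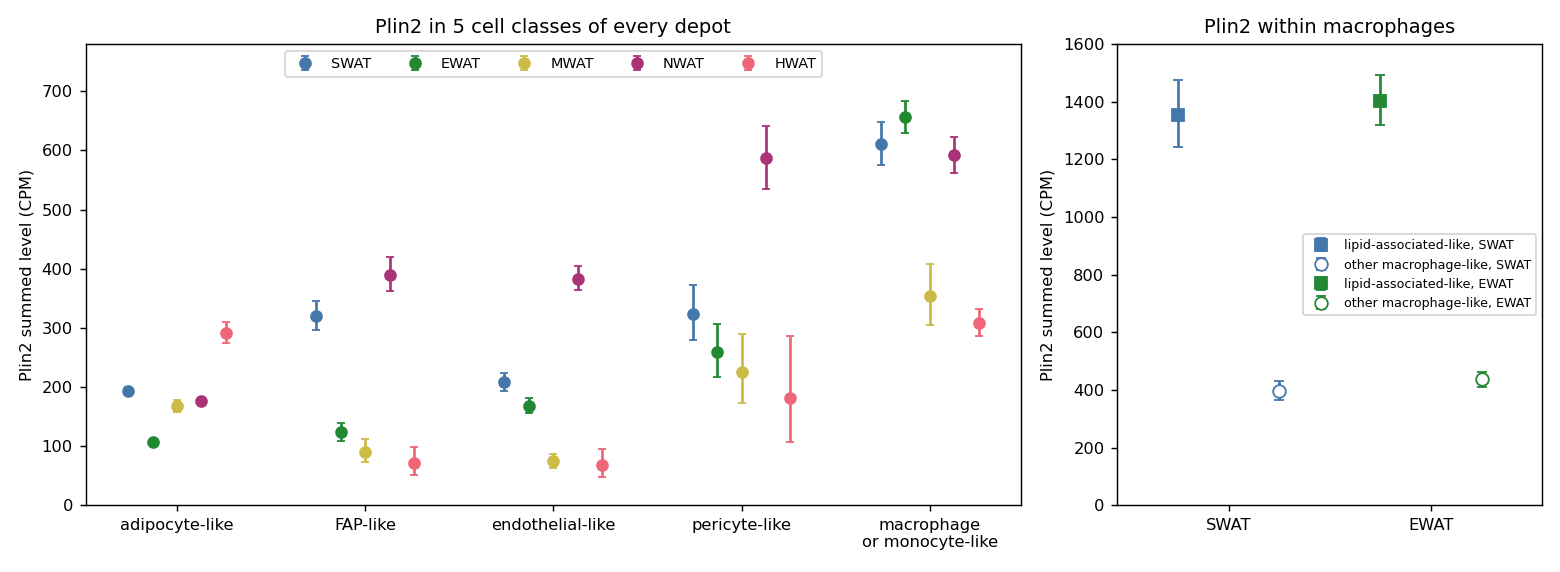
Left, Plin2 in CPM (y axis) in 5 cell classes (x axis) of the 5 depots (colours); right, Plin2 in lipid-associated-like (squares) and other macrophage-like nuclei (open circles) of SWAT and EWAT; whiskers are exact 95% Poisson intervals of counting error. NWAT is highest in FAP-like, endothelial-like and pericyte-like nuclei at 390, 383 and 587 CPM, and HWAT is highest in adipocytes at 292 CPM.

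Macrophage or monocyte-like nuclei had more Plin2 per UMI than adipocytes in SWAT, EWAT, MWAT and NWAT, while in HWAT the intervals of both classes overlapped. Their levels were 656 CPM in EWAT (629 to 684), 610 in SWAT (575 to 648), 592 in NWAT (562 to 623), 354 in MWAT (305 to 408) and 309 in HWAT (286 to 333). This was 611% of the adipocyte level in EWAT, 336% in NWAT, 316% in SWAT, 210% in MWAT and 106% in HWAT. The 7 adipocyte markers in the same nuclei had medians of 3.31% to 11% of their adipocyte level. EWAT, SWAT and NWAT were not separated as neighbours in this order, nor were MWAT and HWAT.

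Plin2 in macrophages was within 2-fold of the mean of the other depots everywhere, and the members that passed were Plin4 and Cidec. Of 13374 genes tested, 5.36% were higher and 5.2% lower in SWAT, where 1 member was higher (Plin4 at log2 1.12) and 0 lower. EWAT had 1 higher (Plin4 at 1.36) and 0 lower, with 5.88% and 3.32% of genes. HWAT had 0 higher and 2 lower (Plin4 at -2.66 and Cidec at -1.05), with 7.12% and 14.7%. In MWAT and NWAT 0 passed in either direction, with 9.43% and 6.15% of genes in MWAT and 2.77% and 6.32% in NWAT. The adipocyte marker Adipoq stood in these nuclei at 28.6% of its adipocyte level in SWAT, 25.1% in NWAT, 19.2% in EWAT, 16.3% in MWAT and 5.99% in HWAT, so HWAT was lowest in it as in Plin4 and Cidec. The part of adipocyte RNA in the Plin4 and Cidec values was not tested.

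Lipid-associated-like macrophages, named from Trem2, Gpnmb, Spp1 and 6 further markers that do not include a member, had more Plin2 than the summed other macrophage-like nuclei. In SWAT the 229 lipid-associated-like nuclei had 1354 CPM (1243 to 1474), against 398 CPM (366 to 433) in the other 792 macrophage-like nuclei, a ratio of 3.4 (3.02 to 3.84). In EWAT 301 lipid-associated-like nuclei had 1403 CPM (1320 to 1491), against 438 CPM (412 to 464) in the other 1257, a ratio of 3.21 (2.94 to 3.49). Both depots showed the same direction, and after thinning 73.6% and 65.8% of lipid-associated-like nuclei held a UMI, against 29.5% and 32.5% of the others. Among all genes 6.61% in SWAT and 6.35% in EWAT were 2-fold higher in lipid-associated-like nuclei, and Plin2 was the only member that was. In SWAT 10.6% of genes and 0 members were lower. The other nuclei were mixed in Plin2: a sub-cluster with Scd1, Fasn and Sparc among its leading genes had 1131 CPM (939 to 1351) in 66 EWAT nuclei and 403 CPM (313 to 511) in 81 SWAT nuclei. They also held a sub-cluster led by Clec9a (22 SWAT and 26 EWAT nuclei) and one with Flt3 among its leading genes (22 and 35), both genes known from dendritic cells.

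The other depots held 39 (NWAT), 13 (MWAT) and 6 (HWAT) lipid-associated-like nuclei, too few to compare. Plin2 in the macrophages outside this sub-cluster was 561 CPM in NWAT, 438 in EWAT, 398 in SWAT, 339 in MWAT and 309 in HWAT, so NWAT was highest once these nuclei were left out. Plin4 was lower in the lipid-associated-like nuclei of EWAT, at 106 CPM against 215 CPM, and in SWAT, at 115 CPM against 181 CPM. The EWAT value passed 2-fold (log2 -1.01), among 9.68% of all genes, but fell short of it under 5 of the alternative settings. Some of the remaining macrophage sub-clusters carried adipocyte transcripts (Fabp4, Slc1a3) among their leading genes, and the part of these in the Plin4 difference was not tested.

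Adipocyte RNA was seen in every other class, which bears on the members that adipocytes hold most of. Over 42 sums of another class in a library, Adipoq stood at 2.92% to 94.2% of its adipocyte level, with a median of 20.9%. The median of the 7 adipocyte markers ran from 1.26% to 40.5%. Cidec exceeded the Adipoq percentage in 0 of 42 sums and Plin4 in 3 of 42, with medians of 11.5% and 12.1% of the adipocyte level. Both medians were below that of Adipoq and above 7.83%, the median over the sums of the 7-marker median. The part of adipocyte RNA in these levels was not tested. Plin4 in macrophage-like nuclei, for example, was lowest in HWAT at 20.2 CPM, against 87.0 to 190 CPM elsewhere, and the median of the markers was also lowest there at 3.31%, against 7.45% to 11% elsewhere.

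Of the other members, Plin3, Plin2 and Bscl2 stood apart from this pattern most often, and Fitm2 and Plin5 in a minority of sums. Plin3 exceeded all 7 markers in 40 of 42 sums, with a median of 132% of the adipocyte level, and Plin2 in 35 of 42, with a median of 61.1%. Bscl2 exceeded them in 26 of 42 sums, with a median of 29.7%, and passed Adipoq alone in 34. Fitm2 exceeded all markers in 11 of 42 sums, with a median of 18.7%. Plin5 did so in 13 of 42, with a median of 11.7%, often on fewer than 10 counts. Each of them passed Adipoq in 15 sums, and both medians were below the 20.9% of Adipoq. Plin5 was below all 7 markers in 6 sums and Fitm2 in 3. In FAP-like nuclei Bscl2 was 26.4% to 34.0% of its adipocyte level and Adipoq 17.3% to 28.1%. Bscl2 was the higher of the pair in every depot but SWAT, with 34.0% and 18.4% in HWAT and 26.4% and 28.1% in SWAT.

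Plin3 was above its adipocyte level in every library with a sum among FAP-like (174% to 330%) and macrophage or monocyte-like nuclei (114% to 213%). The same held for pericyte-like (102% to 230%) and mesothelial-like nuclei (165% to 259%). Some of these excesses were small. Pericyte-like Plin3 was 102% of the adipocyte level in SWAT, 114% in MWAT (6 counts) and 127% in HWAT. Macrophage-like Plin3 was 114% in SWAT, on 47 counts. Whether these small excesses went beyond counting error was not tested. Mesothelial-like Plin3 was 64.4 CPM in NWAT (54.0 to 76.1), 52.0 in HWAT (46.7 to 57.7), 31.7 in MWAT (26.9 to 37.0) and 29.1 in EWAT (23.5 to 35.6). It was below the adipocyte level in MWAT smooth muscle-like nuclei (12.0 CPM, 62.3%) and NWAT skeletal muscle-like nuclei (11.3 CPM on 6 counts, 45.4%). NWAT had the highest Plin3 level of the 5 depots in FAP-like, endothelial-like, macrophage-like and pericyte-like nuclei, 1.87-fold to 2.72-fold above the lowest depot. It was not separated from the next depot, HWAT, in FAP-like, endothelial-like or pericyte-like nuclei. The ratios were 1.34 (0.911 to 2.03), 1.31 (0.782 to 2.36) and 1.89 (0.606 to 9.48) in that order. In macrophage-like nuclei NWAT exceeded EWAT, the next depot, 1.47-fold (1.125 to 1.92). Bscl2 outside adipocytes reached its highest percentage in T or NK cell-like nuclei (77.5% in SWAT, on 20 counts) and in NWAT pericyte-like nuclei (128 CPM, 69.1%).

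**Figure D4:**
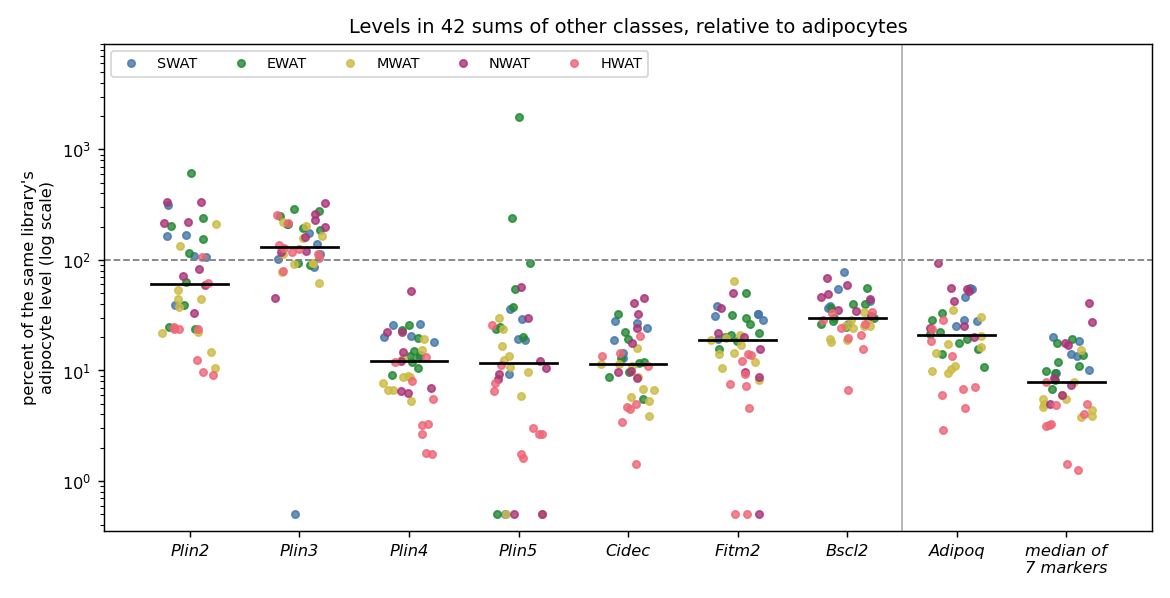
Level in each of 42 sums of another class in a library, as a percentage of the adipocyte level of that library (y axis, log scale; values under 0.5% drawn at 0.5%, dashed line at 100%), for 7 members, Adipoq and the median of 7 adipocyte markers (x axis); points are coloured by depot and black lines are medians. Plin2 and Plin3 have medians of 61.1% and 132%, whereas Cidec and Plin4 at 11.5% and 12.1% lie below Adipoq at 20.9%.

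Plin5 had a second high level outside adipocytes. In the 88 multiciliated-like nuclei of EWAT (named from Foxj1, Hydin and 3 further genes of motile cilia) it had 27 counts in 21 nuclei, or 98.9 CPM (65.2 to 144). In EWAT epithelial-like nuclei it had 12.2 CPM (5.85 to 22.4), and in EWAT adipocytes 5.05 CPM. The multiciliated-like level was 8.11 times the epithelial-like one (3.8 to 18.8) and 19.6 times the adipocyte one, with a lower limit of 12.4. Adipoq in these nuclei was 14.1% of its adipocyte level. No other depot held 50 multiciliated-like nuclei, so the level could not be compared between depots. HWAT was highest in Plin5 also among FAP-like nuclei (7.63 CPM, 4 counts), endothelial-like nuclei (13.4 CPM, 7 counts) and pericyte-like nuclei (30.3 CPM, 3 counts). These rest on few counts, and the FAP-like level was 6.46% of the HWAT adipocyte level, below the 18.4% of Adipoq. The endothelial-like level was 11.3%, below the 13.4% of Adipoq, and the pericyte-like level was 25.6%, above the 23.6% of Adipoq. Each was above the median of the 7 adipocyte markers, at 4.0% in FAP-like, 5.0% in endothelial-like and 4.9% in pericyte-like nuclei of HWAT.

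**Figure D5:**
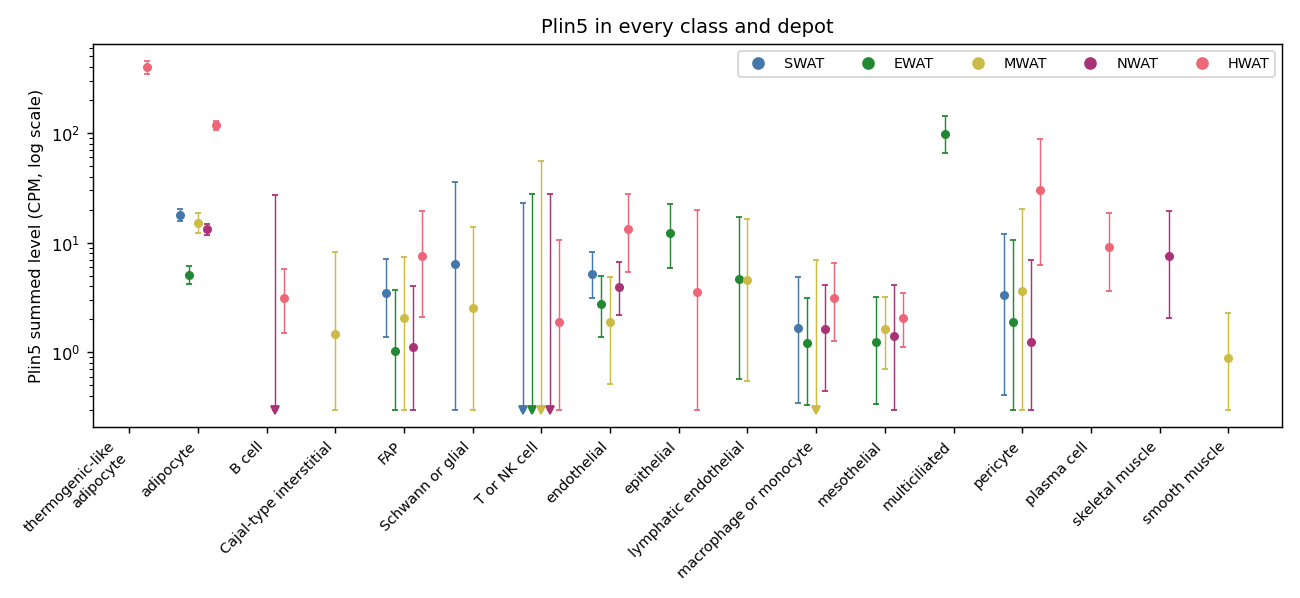
Plin5 in CPM (y axis, log scale) in the thermogenic-like adipocytes of HWAT and in every class with at least 50 nuclei (x axis), coloured by depot; circles are levels, triangles at the floor are sums with 0 counts, and whiskers are exact 95% Poisson intervals of counting error, cut at the floor. The HWAT thermogenic-like adipocytes stand at 397 CPM, all HWAT adipocytes at 118 CPM and the EWAT multiciliated-like nuclei at 98.9 CPM.

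A list of 30 further droplet genes gave the setting for the members: Plin1, Cidea and Cideb, 7 lipases and lipase cofactors, 8 enzymes of triglyceride synthesis, and 12 genes of the droplet surface. Against FAP-like nuclei, 18 of 29 measured genes were 2-fold higher in adipocytes in SWAT, 18 of 28 in EWAT, 19 of 29 in MWAT, 18 of 29 in NWAT and 18 of 29 in HWAT. Lower were 2, 0, 1, 1 and 2 genes in that order. Of all genes, 16.2%, 16.3%, 16.4%, 18.3% and 13.8% were higher and 19.1%, 20.6%, 19.8%, 21.9% and 22.9% lower. The list's median log2 difference ran from 1.86 to 2.30, and the median of all genes from -0.23 to -0.06. Plin1, the coat of the adipocyte droplet, was 8.76-fold (SWAT) to 24.4-fold (HWAT) higher in adipocytes. Hilpda, an inhibitor of adipose triglyceride lipase, was 2-fold or more lower in adipocytes in SWAT, MWAT and HWAT, the direction of Plin3. Hsd17b11 was also lower in SWAT and HWAT, and Tmem159 in NWAT.

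Between depots, 5 of 30 genes were 2-fold higher and 0 lower in HWAT adipocytes, against 11.9% and 19.3% of all genes, with a list median of -0.15 and a median of -0.22 over all genes. They were Cidea (log2 5.77), a droplet fusion protein of thermogenic fat, Cideb (3.93, on 22 counts in all depots), the lipase inhibitor G0s2 (1.79), the acyltransferase Agpat2 (1.39) and Clstn3 (1.55), a locus with an adipocyte isoform at droplet contacts. In EWAT 3 were lower, Cidea (-6.11), Clstn3 (-1.93) and Agpat2 (-1.10), and Cideb was higher (1.67). SWAT had Cidea higher (2.42) and Cideb lower (-1.39), MWAT had Cidea lower (-1.12), and NWAT had Cideb lower (-4.19). Cidea had 583 CPM in HWAT, 91.1 in SWAT, 14.0 in NWAT, 12.7 in MWAT and 0.784 in EWAT, so HWAT and EWAT were at the ends of the order as for Plin5. Plin1 stayed between 1161 and 1431 CPM in all depots. In HWAT macrophage-like nuclei 1 of 29 list genes was higher (Cidea) and 13 were lower, against 7.12% and 14.7% of all genes, with a list median of -0.77 and a median of -0.16 over all genes. In HWAT endothelial-like nuclei 1 was higher (Cidea) and 8 were lower, against 9.2% and 13.5%, with medians of -0.56 and -0.07. Plin1 was among the lower genes in both classes, and the part of adipocyte RNA was not tested.

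Within HWAT, 4 of 29 measured list genes were 2-fold higher in thermogenic-like than in other adipocytes and 2 were lower, where 11.7% of all genes were higher and 10% lower. Cidea, among the leading genes of the sub-cluster, had 2745 and 152 CPM in that order, and Clstn3 had 235 and 42.1 CPM. Gpat4, an acyltransferase of the endoplasmic reticulum, had 260 and 90.1 CPM. Hilpda had 21.4 and 10.2 CPM on 44 counts. Pnpla3, a droplet lipase relative, was lower, with 281 and 761 CPM. Acsl3, which activates fatty acids at forming droplets, was lower on 37 counts. Plin1 was level, with 1248 and 1144 CPM, while its relatives Plin4 and Plin5 differed in opposite directions. Among macrophages Hilpda was higher in lipid-associated-like nuclei of SWAT (log2 2.51, 58 counts) and EWAT (2.61, 106 counts), as Plin2 was.

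Genes with the most similar pattern over 49 class sums were picked by Pearson's r of log2(CPM + 1), a description in which sums of 1 library share its depth and background. Plin4 was closest to Plin1 (0.973), Adrb3 (0.968) and Slc1a3 (0.945), and Cidec to Car3 (0.981), Cfd (0.967) and Cyp2e1 (0.964). Bscl2 was closest to Car3 (0.897), Pex13 (0.878) and Cfd (0.874), and Fitm2 to Blcap (0.835), Smim19 (0.817) and Chst1 (0.804). Among the genes closest to Plin2 were Ctsb (0.736) and Adap2os (0.719). Those closest to Plin5 were Wdr93 (0.692), Gm31305 (0.667) and Dnah3 (0.661), and those closest to Plin3 were Tmub2 (0.743), Mvp (0.710) and Rabgef1 (0.695). Fitm1 was closest to Myoz1 (0.865), Mylk4 (0.799) and Pvalb (0.768). Among the members themselves, Cidec and Bscl2 (0.90) and Plin4 and Cidec (0.86) were the most alike, and Plin3 had values between -0.23 and 0.12 with the other 7.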

How the data were processed

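The deposited files hold raw UMI counts of each gene in each nucleus, without scaling, for 5 libraries. Per the file headers, the software was Cell Ranger 6.0.1. The submitters' processing notes name the build mm10, and the sources used here give no annotation release. The libraries were 3′ droplet libraries, per the labels' protocols. Every deposited nucleus had at least 500 UMIs.

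Nuclei with under 200 genes or over 10% mitochondrial UMIs were removed (149), and then 9642 likely doublets, scored against simulated ones at 0.8% per 1000 nuclei. The rest were clustered on 2000 variable genes, 40 components and 20 neighbours by the Leiden method (leidenalg 0.10.2, Python 3.11.15) at resolution 1, without batch integration. The 8 members, 30 pathway genes and mitochondrial genes were kept out. Of 41 clusters 38 were named, from a mean marker log2 fold of at least 1 that led other classes by 1; adipocytes and macrophages were divided again at resolution 0.5. Both naming thresholds were chosen once the clusters were known.

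Counts were summed per class and library with at least 50 nuclei, as CPM. Log2 differences had 0.5 counts added and needed 20 counts; a call is a 2-fold difference. Thinned shares use 1000 UMIs per nucleus and leave shallower nuclei out. A count of 0 allows 3 counts. TMM factors came from edgeR 4.0.16 (R 4.3.3). The 2-fold rule was tried on simulated counts with planted changes larger than 2-fold and counting error only. That trial does not cover variation between libraries. Members, lists and markers were chosen with earlier results of these data known. The genes named are the 8 members, the 30-gene list and, for each member, the 3 most alike genes with at least 500 counts, of which 1 is not reported here.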

Additional observations from a re-analysis of the deposited data

Results flagged for a closer look

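Plin2 differed between adipocyte-like and FAP-like nuclei in opposite directions in a pair of depots. Its log2 difference, adipocytes over FAP-like nuclei, was 1.99 in HWAT (292 and 72.4 CPM) and -1.15 in NWAT (176 and 390 CPM). The difference between the depots was not tested, since each depot is 1 library.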

How the results depend on the processing

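No paired analysis was possible because each depot is 1 pooled library and the labels give no replicate numbers that pair samples. The values under alternative settings cover adipocytes between depots, adipocytes over FAP-like nuclei, thermogenic-like adipocytes and lipid-associated-like macrophages. Depot differences within FAP-like, endothelial-like and macrophage-like nuclei are not among them. Of 320 counts of members past 2-fold under up to 13 alternative settings, 279 were within 1.5 times the main count and 41 were not. For 43 differences of 2-fold or more after rounding to 2 decimals (Fitm1 left out, no minimum count), 527 of 529 alternative values kept their direction and 511 stayed at 2-fold or more. Of all 1280 alternative differences of single members, 1124 moved by no more than counting error, 150 moved by more and 6 reversed; taking off the lowest class level moved 47 of 80. When members and pathway genes were allowed among the clustering genes, 0 of 8 members ranked among the 2000 taken. The cause was not tested for any change below, apart from the minimum count, which removes genes by construction.

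Doublet removal at 1.6%, the 2% mitochondrial limit and the 100-count minimum each left Fitm1 uncalled, with 0 members lower in SWAT, 1 lower in EWAT, 0 higher in NWAT and 1 higher in HWAT adipocytes. NWAT had 0 higher with 5 counts added and 2 higher with the lowest class level taken off, where SWAT had 1 higher; MWAT had 1 higher without doublet removal. Lower than in FAP-like nuclei were 1 member in SWAT (lowest class level taken off; no minimum count), 2 in EWAT and 2 in HWAT (no minimum count), and 0 in MWAT (no doublet removal, doublets at 1.6%, mitochondria at 2%, mean CPM per nucleus, TMM). Thermogenic-like nuclei had 1 member higher by mean CPM per nucleus or at 100 counts. In lipid-associated-like nuclei of SWAT, 2 were higher (mitochondria at 2%) or 3 (no minimum), and 3 (no doublet removal) or 1 (resolution 2; mean CPM) lower. In EWAT 2 were higher (doublets at 1.6%; mitochondria at 2%), 2 lower (no doublet removal; no minimum) and 0 lower (doublets at 1.6%; members in clustering; resolution 2; mean CPM; 5 counts added). Reversed were Fitm1, adipocytes over FAP-like nuclei in NWAT (-0.22 with mitochondria at 2%, -0.32 with members in clustering, -1.60 with 5 counts added), Fitm1 in thermogenic-like nuclei (-0.06 without doublet removal) and Plin5 in lipid-associated-like nuclei of EWAT (0.42 with members in clustering, 0.93 with 5 counts added), all on few counts.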
